A study of Mus musculus with 15 samples.

Results

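The data concern 8 genes whose enzymes supply NADPH or keep the pentose phosphate pathway turning in mouse lung: G6pdx, Pgls, Pgd, Tkt, Taldo1, Me1, Idh1 and Idh2. They were chosen by name, through every array probe whose RefSeq accession belongs to one of the 8 symbols. These probes numbered 13 of the 56605 probes on the array. All 13 were well above background on all 15 arrays, so no member was lost to the filter on dim probes. Taldo1, Me1, Idh1, Idh2 and Pgls each had 2 probes, and the other 3 genes had 1. The brightest probe of a gene stood for the gene, and the 8 genes were read among 34401 features, of which 19289 carried a gene symbol.

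NADPH is the reducing power that cells spend on recycling glutathione and thioredoxin, on building fatty acids and sterols, and on reductions of foreign compounds. The oxidative branch of the pentose phosphate pathway makes it in the cytosol: G6pdx encodes glucose-6-phosphate dehydrogenase, the committed and rate-limiting step, Pgls the lactonase that follows, and Pgd 6-phosphogluconate dehydrogenase, which makes the next NADPH. Tkt (transketolase) and Taldo1 (transaldolase) make no NADPH themselves but return pentoses to glycolytic sugars. Me1 (cytosolic malic enzyme) and Idh1 (cytosolic and peroxisomal isocitrate dehydrogenase) make it outside this pathway, and Idh2 does so in mitochondria. Several of these genes, with Nqo1, Txnrd1 and the glutathione genes, are known targets of the transcription factor Nrf2.

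Whole lungs of 15 female mice of the outbred stock Crlj:CD1(ICR), aged 11 weeks, were compared after 7 days on a powdered diet. Permethrin is a pyrethroid insecticide. The 5 diets held 0 (control), 20, 500, 2500 or 5000 ppm permethrin, with 3 mice each, and each array held the RNA of 1 mouse. The labels name no transgene and no second treatment, and every mouse was female and of 1 age, which limits the comparison to that sex and age. The labels call the arrays of a diet biological replicates. All 10 alveolar type 2 cell markers were measured, and their summed level was between 10.2 and 10.6 on the log2 scale on every array, so the lung label held.

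Values are log2 of the scanner's processed signal minus the 75th percentile of the same array. They compare arrays for 1 probe and give no ranking of one gene against another. The number of arrays, 3 per diet, limits the precision. The control and 20 ppm arrays and 2 of the 500 ppm arrays lay on slide 1, and the third 500 ppm array and all 2500 and 5000 ppm arrays lay on slide 2. Slide and dose can therefore not be told apart for the control and the 2 highest doses except through that 500 ppm array. Between 70.75% and 87.04% of probes were above background on an array and no spot was saturated. The extraction software gave a status of 1 for 500 ppm mouse 3 and 2500 ppm mouse 3, and 0 for every other array. On 2500 ppm mouse 3, 274 spots were flagged as outliers, against 104 to 145 on the other arrays. Of the arrays, 500 ppm mouse 3 stood apart on the first principal component (36.48% of variance), followed by 2500 ppm mouse 3. Control mouse 1 and 20 ppm mouse 1 stood apart on the second (17.93%).

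The promoter windows of the 8 genes were searched for the core of the antioxidant response element, the site bound by Nrf2 with small Maf proteins, since Nrf2 targets and Pgd shared a pattern across diets that is described further on. The motif searched was TGACNNNGC, read on both strands (GCNNNGTCA on the other). All 8 genes had a window from RefSeq, GRCm38.p6, from 250 bases before to 50 bases after an annotated start, and there were 11 windows. The motif was in 3 of the 11 windows (27.273%), against 12.392% of 32851 windows over all genes. Of 11 Nrf2 target genes with a window, 4 (36.364%) had a match, against 13.991% of 27025 genes. So few windows give coarse shares, and the difference was not tested. The 4 windows printed here are shown because they belong to the genes with a match, with the other Pgd start beside its second. Capitals mark the match.
G6pdx (chrX:74428831-74429130, minus strand, match on the strand opposite to the one printed, starting 57 bases before the start): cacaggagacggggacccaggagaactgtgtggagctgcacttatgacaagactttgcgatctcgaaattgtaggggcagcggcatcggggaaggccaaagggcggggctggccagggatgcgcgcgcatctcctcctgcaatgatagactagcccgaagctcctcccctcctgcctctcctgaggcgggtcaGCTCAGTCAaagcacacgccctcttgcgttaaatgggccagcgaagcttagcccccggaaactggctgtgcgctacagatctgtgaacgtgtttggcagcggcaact
Pgd, main start (chr4:149166656-149166955, minus strand, no match): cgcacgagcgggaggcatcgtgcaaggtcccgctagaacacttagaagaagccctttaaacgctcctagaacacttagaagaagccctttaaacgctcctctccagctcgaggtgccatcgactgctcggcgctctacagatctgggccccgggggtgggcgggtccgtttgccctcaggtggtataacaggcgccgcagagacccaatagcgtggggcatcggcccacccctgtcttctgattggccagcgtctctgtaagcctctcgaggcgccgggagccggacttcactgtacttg
Pgd, second start (chr4:149166033-149166332, minus strand, match starting 3 bases after the start): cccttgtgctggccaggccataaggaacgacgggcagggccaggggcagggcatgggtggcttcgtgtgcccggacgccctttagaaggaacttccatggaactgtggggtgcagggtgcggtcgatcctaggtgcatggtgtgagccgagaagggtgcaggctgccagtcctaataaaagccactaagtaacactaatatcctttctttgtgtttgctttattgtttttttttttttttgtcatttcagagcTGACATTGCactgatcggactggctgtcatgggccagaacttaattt
Me1, main start (chr9:86695865-86696164, minus strand, match starting 6 bases before the start): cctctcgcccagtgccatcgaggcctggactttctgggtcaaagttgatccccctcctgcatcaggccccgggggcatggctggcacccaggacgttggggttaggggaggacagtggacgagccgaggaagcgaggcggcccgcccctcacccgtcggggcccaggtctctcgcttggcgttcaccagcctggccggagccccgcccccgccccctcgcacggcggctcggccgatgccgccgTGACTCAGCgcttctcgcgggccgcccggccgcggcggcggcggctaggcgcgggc

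The G6pdx match was GCTCAGTCA and the Me1 match TGACTCAGC; the latter contains TGACTCA, the AP-1 motif, so the 2 motifs overlap there. The windows of Taldo1, Tkt, Idh1, Idh2 and Pgls and the second Me1 window held no match. The second Pgd start lies inside the gene, downstream of the main start. The bases before it end in a t-rich stretch and cag, the form of an intron's end. The match there lies in transcribed bases after the start, and whether this start acts as a promoter in lung was not tested. A match describes the letters only, and no binding was measured.

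Across the 5 diets the members shared a small upward difference at the highest dose, led by Pgd. At 5000 ppm all 8 genes were above the control mean, with a median log2 fold change of 0.38. The median over all features was 0.0725, and 60.65% of them were above 0. The largest difference was that of Pgd, 0.58 on the log2 scale (1.49-fold), and the smallest that of Idh2, 0.18. None passed an adjusted p of 0.05 by limma with Benjamini-Hochberg adjustment over all features. In all, 14 features passed at 5000 ppm, which is 0.0407% of those tested. At an unadjusted p under 0.05, 2 of the 8 passed (Pgd and Taldo1), against 5.14% of all features. In 5 of the 8 genes (G6pdx, Pgd, Taldo1, Idh1 and Pgls) all 3 mice at 5000 ppm lay above all 3 control mice, against 12.9% of all features. In none of the 8 did all 3 lie below. The 8 genes were chosen with earlier results of these data known, so these shares are no independent evidence.

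**Figure D1:**
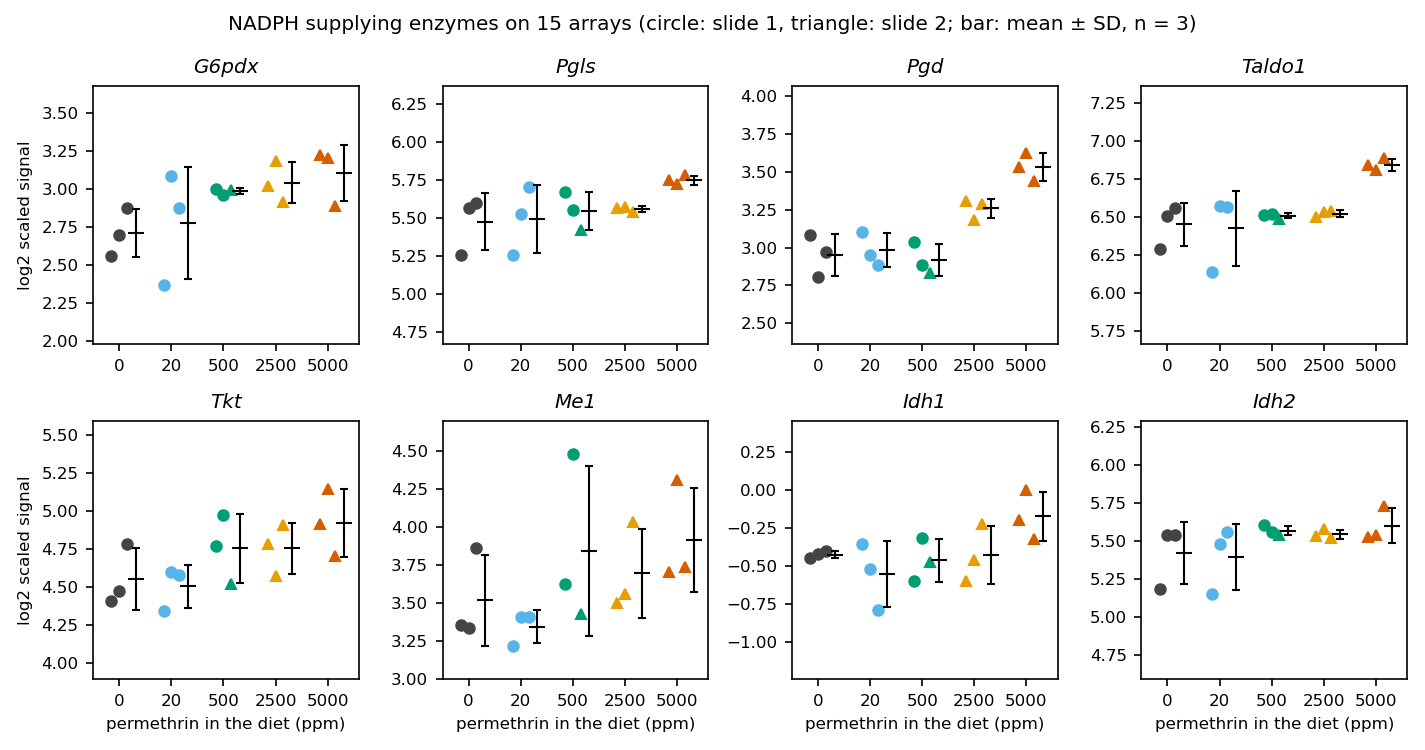
The log2 scaled signal of the 8 genes is plotted for each mouse against the permethrin in the diet, with circles for slide 1, triangles for slide 2, and bars for the mean and SD of 3 mice. Each panel spans the same log2 range around its own values. Pgd is highest at 5000 ppm and next at 2500 ppm, Taldo1 sits above all other diets at 5000 ppm, and Me1 has 1 high mouse in each of the diets of 500, 2500 and 5000 ppm.

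Pgd, the second NADPH-making dehydrogenase of the oxidative branch, was read by 1 probe. Its level was 3.08, 2.81 and 2.97 in the control mice and 3.105, 2.95 and 2.89 at 20 ppm. It was 3.03, 2.88 and 2.83 at 500 ppm, 3.30, 3.18 and 3.28 at 2500 ppm, and 3.53, 3.62 and 3.43 at 5000 ppm. The mice at 5000 ppm lay above those at 2500 ppm, and these above all mice of the 3 lower groups, which overlapped. The means were 2.95 ± 0.14 (SD, n = 3) in the control, 2.98 ± 0.11 at 20 ppm, 2.92 ± 0.11 at 500 ppm, 3.26 ± 0.06 at 2500 ppm and 3.53 ± 0.09 at 5000 ppm. At 5000 ppm the log2 fold change was 0.58 ± 0.13 (SE, 95% interval 0.30 to 0.86, unadjusted p = 0.00072), and limma's adjusted p was 0.298. At 2500 ppm the difference was 0.31 ± 0.13 (SE, adjusted p = 0.532). Per step in the rank of the dose the log2 level was higher by 0.14 ± 0.029 (SE), with a limma adjusted p of 0.0976, and 49 features (0.142% of those tested) passed this trend. At an unadjusted p under 0.05, 4 of the 8 genes passed the trend (Pgd, Taldo1, G6pdx and Tkt), against 9.22% of all features, and 1 (Pgd) the test of any difference among the diets, against 5.36%. Ordered by p, Pgd was at place 83 of the 34401 features at 5000 ppm. With each array weighted by its own quality, the adjusted p of Pgd was 0.0193 at 5000 ppm and 0.00495 for the trend, in fits that called 93 and 543 features. The residual SD of Pgd was 0.106, in the lowest 1.02% of features (median 0.318).

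G6pdx, the first enzyme of the branch, was read by 1 probe too. Its level was 2.56, 2.698 and 2.88 in the controls, 2.37, 3.09 and 2.87 at 20 ppm, and 3.00, 2.96 and 2.99 at 500 ppm. It was 3.02, 3.19 and 2.92 at 2500 ppm and 3.22, 3.20 and 2.89 at 5000 ppm. All 9 mice at 500 ppm and above lay over the highest control, while the 20 ppm mice lay on both sides of the controls, with the lowest value of all 15. At 500 ppm all 3 mice lay above the controls in 1 of the 8 genes, G6pdx, against 4.53% of all features, and at 2500 ppm in 2 (G6pdx and Pgd), against 8.83%. The log2 fold change at 5000 ppm was 0.40 ± 0.18 (SE, limma adjusted p = 0.964), and the means at 500, 2500 and 5000 ppm differed by less than the residual SD of 0.208. The mouse genome also holds G6pd2, an autosomal copy of G6pdx with a probe of its own, and signal from that copy on the G6pdx probe was not tested. Pgls, which opens the lactone between these steps, was 5.26, 5.57 and 5.59 in the controls and 5.75, 5.72 and 5.78 at 5000 ppm. Those groups did not overlap, and the fold was 0.28 ± 0.15 (SE, limma adjusted p = 0.964).

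Taldo1, of the non-oxidative branch, had a level between 6.14 and 6.57 in the 12 mice of the control and the 3 lower doses. At 5000 ppm it was 6.84, 6.81 and 6.89, above all 12. The log2 fold change against the control was 0.39 ± 0.14 (SE, 95% interval 0.09 to 0.70, limma adjusted p = 0.888). At 2500 ppm the mean was 6.52 ± 0.022 (SD, n = 3), and Taldo1 was 0.32 ± 0.14 (SE) higher at 5000 than at 2500 ppm, both on slide 2 (limma adjusted p = 0.964). In that comparison 3 of the 8 genes did not overlap, all higher at 5000 ppm (Pgd, Taldo1 and Pgls), against 8.13% of all features. No feature passed it by limma, with 1733 (5.04%) at an unadjusted p under 0.05, Taldo1 among them. The count passing limma's adjusted p of 0.05 went from 0 to 9 without 2500 ppm mouse 3 and to 561 with array weights. It was 944 without control mouse 1, 20 ppm mouse 1, 500 ppm mouse 3 and 2500 ppm mouse 3. No member was called in any of these fits. Tkt, its partner enzyme, ranged from 4.41 to 4.79 in the controls and from 4.70 to 5.15 at 5000 ppm, so the groups overlapped. Its fold was 0.37 ± 0.18 (SE, limma adjusted p = 0.964).

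Me1 varied more between mice than between diets. Its level was 3.35, 3.33 and 3.86 in the controls, 3.21, 3.40 and 3.41 at 20 ppm, and 3.62, 4.48 and 3.42 at 500 ppm. It was 3.50, 3.55 and 4.03 at 2500 ppm and 3.70, 4.30 and 3.73 at 5000 ppm. One mouse in each of the 3 higher diets was high, and the diets overlapped. The log2 fold change at 5000 ppm was 0.40 ± 0.28 (SE, limma adjusted p = 0.967), and the residual SD of Me1 was 0.351. Idh1 lay between -0.45 and -0.40 in the controls and between -0.32 and -0.0023 at 5000 ppm, without overlap. Its fold was 0.25 ± 0.16 (SE, limma adjusted p = 0.967). Idh2 was 5.18, 5.54 and 5.54 in the controls and 5.53, 5.53 and 5.73 at 5000 ppm, which overlapped, and its fold was 0.18 ± 0.15 (SE, limma adjusted p = 0.967). For neither isocitrate dehydrogenase did the interval of the fold leave out 0.

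The lower doses gave less. At 20 ppm, where all arrays shared the slide of the controls, the log2 fold changes of the members lay between -0.17 and 0.07 with a median of -0.0256, beside -0.0254 over all features. At 500 ppm they lay between -0.04 and 0.32 with a median of 0.11, beside 0.12. At 2500 ppm the median was 0.15, beside 0.05. By limma no feature passed at 20, 500 or 2500 ppm (percentages of 0), with 509 (1.48%), 977 (2.84%) and 2922 (8.49%) at an unadjusted p under 0.05, and 1 of the 8 genes was among the last, Pgd. At 20 ppm none of the 8 lay wholly above the controls, against 1.5% of all features. Within slide 1 alone, from 2 mice, the 500 ppm folds of the 8 genes lay between -0.034 (Idh1) and 0.53 (Me1), with Pgd at 0.0079. Without 500 ppm mouse 2, the Me1 fold at 500 ppm, fitted over both slides, was 0.0057.

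Folds against the control were also fitted with the slide in the model. When slide was a fixed term, the only array linking both slides was 500 ppm mouse 3, the one farthest from the others on the first component. In that fit 4952 features passed at 5000 ppm, Pgd was 0.71 higher (adjusted p = 0.0789), Tkt 0.72 and Me1 1.02. When slide was a random block, Pgd was 0.62 higher (adjusted p = 0.889). The control and 5000 ppm groups lay on different slides, and the 5000 ppm values against 2500 ppm are the ones within 1 slide.

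The second probes of 5 genes did not all repeat the first. The other probe of Me1 followed it, with a log2 fold change at 5000 ppm of 0.49 ± 0.32 (SE), and that of Idh1 gave 0.40 ± 0.21. The other probe of Pgls gave 0.12 ± 0.24, that of Taldo1 -0.28 ± 0.76, and that of Idh2 -0.70 ± 0.80. Control mouse 1 and 20 ppm mouse 1 were far from the rest on 2 of these probes. On the other Taldo1 probe they read 3.84 and 3.50, and the remaining 13 arrays between 0.559 and 2.33. On the other Idh2 probe they read 0.905 and 0.791, and the rest between -2.40 and -1.0. On the brighter probes of G6pdx, Taldo1, Tkt, Idh2 and Pgls the same 2 arrays were the 2 lowest of the 15. Pearson's r between the 2 probes of Taldo1 was -0.47 over 15 arrays and 0.532 over the 13 without these arrays, and for Idh2 -0.777 and 0.491. Without both arrays the 5000 ppm fold of Idh2 was 0.058, that of Taldo1 0.31, that of Pgls 0.17 and that of Pgd 0.64. The Pgls fold was also 0.17 without control mouse 1 alone. With the mean of a gene's probes in place of the brightest, Idh2 was -0.26 at 5000 ppm and Taldo1 0.06. What these 2 arrays have in common beyond the values given was not tested.

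**Figure D2:**
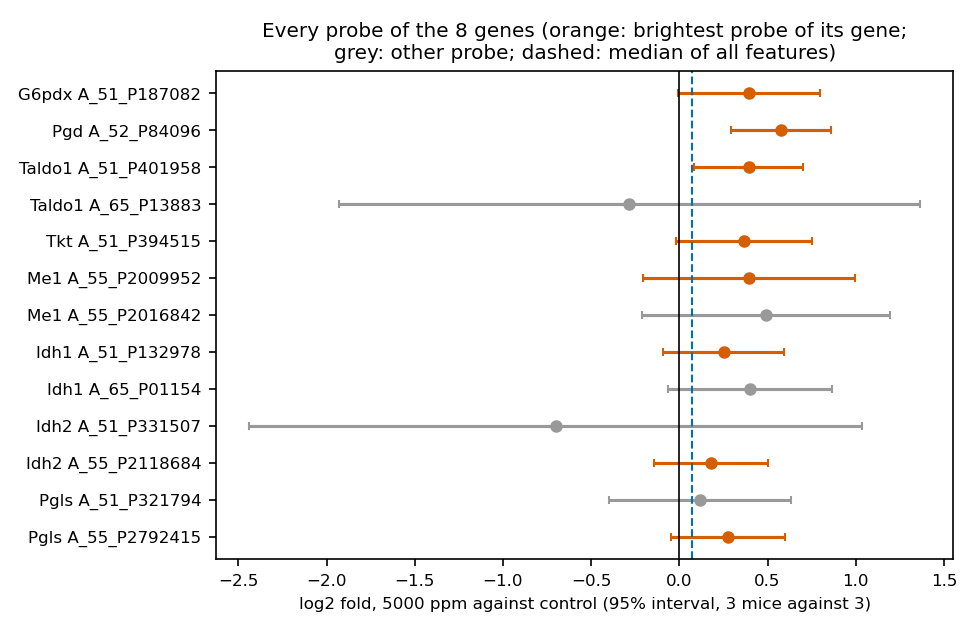
The log2 fold change at 5000 ppm against the control is drawn for each of the 13 probes with its 95% interval, orange for the brightest probe of a gene and grey for the other. The dashed line marks the median of all features, 0.0725. The intervals of Pgd and Taldo1 are the only ones among the orange points that leave out 0, and the grey Taldo1 and Idh2 intervals are wide and lie around values below 0.

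**Figure D3:**
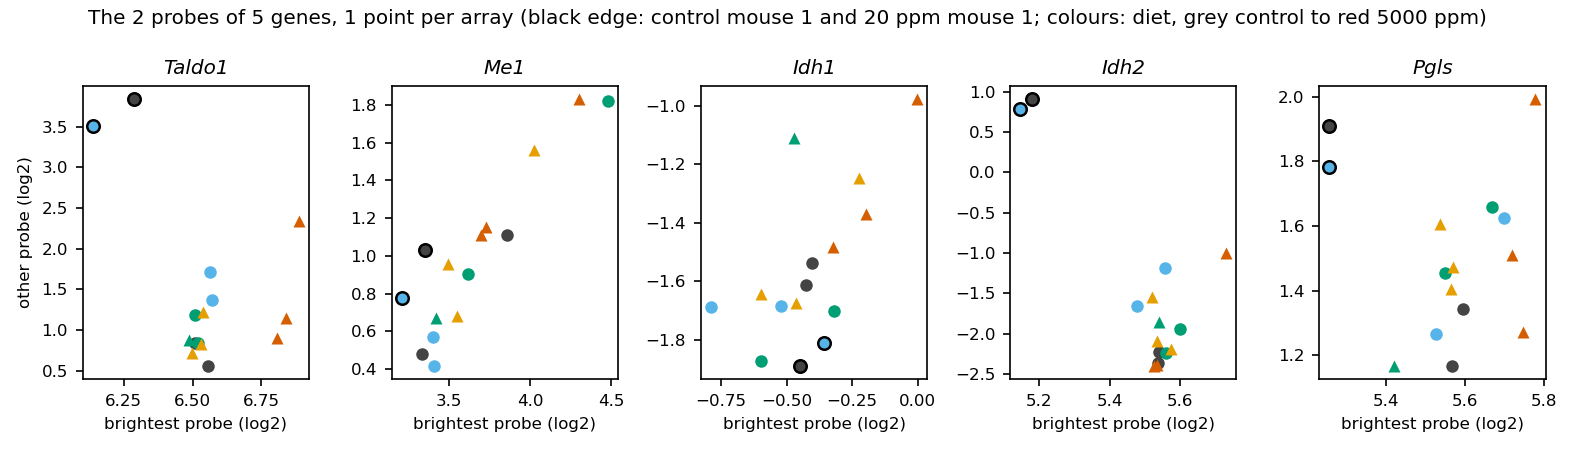
The other probe of each of the 5 genes (y axis) is plotted against its brighter probe (x axis) in log2 scaled signal, with 1 point per array, coloured by diet, circles for slide 1 and triangles for slide 2. The points with a black edge are control mouse 1 and 20 ppm mouse 1, which lie at the upper left for Taldo1 and Idh2. The 2 probes of Me1 rise together over all 15 arrays, with r = 0.909.

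Me1 is known to be abundant in fat cells, and the 3 highest Me1 arrays were those with the most signal from adipocyte markers. Of 10 adipocyte markers 9 were measured, none passed in any comparison, and Adipoq, a defining one, was 2.46, 1.83 and 2.16 in 500 ppm mouse 2, 2500 ppm mouse 3 and 5000 ppm mouse 2, and between -4.96 and -0.264 on the other 12. Their log2 summed level was 2.41 to 4.57 in the controls, 2.21 to 4.04 at 20 ppm, 2.62 to 7.23 at 500 ppm, 2.42 to 6.20 at 2500 ppm and 2.07 to 6.97 at 5000 ppm. The 3 arrays with the highest sums were the 3 with the highest Me1, and for Tkt and for Idh1 they held 3 of the 4 highest places. Without those 3 arrays the fold at 5000 ppm was 0.20 for Me1, 0.17 for Idh1, 0.26 for Tkt, 0.53 for Pgd and 0.41 for Taldo1. The 3 genes most like Me1 over the 15 arrays were Gpd1 (r = 0.945), Pcx (0.941) and Acsl1 (0.909), which encode cytosolic glycerol-3-phosphate dehydrogenase, pyruvate carboxylase and a long-chain acyl-CoA synthetase. In whole lung, more cells of a type and more RNA per cell cannot be told apart, and the part of fat cells in the Me1 values was not tested.

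**Figure D4:**
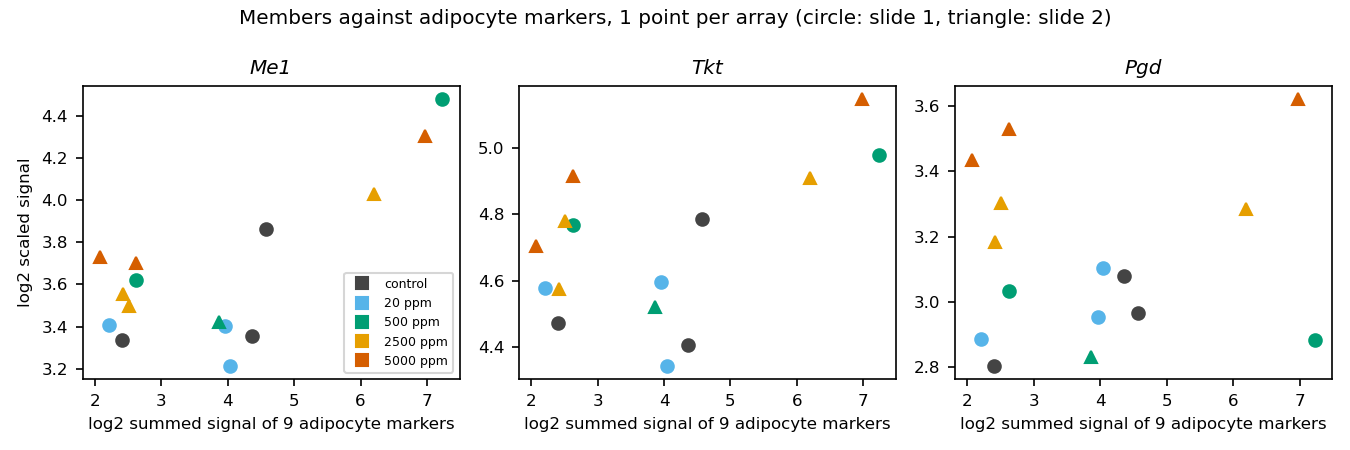
The log2 scaled signal of Me1, Tkt and Pgd is plotted against the log2 summed signal of 9 adipocyte markers, with 1 point per array, coloured by diet, circles for slide 1 and triangles for slide 2. The 3 arrays above a sum of 6 are 500 ppm mouse 2, 2500 ppm mouse 3 and 5000 ppm mouse 2, and they have the 3 highest Me1 values. For Pgd they fall at their diets' levels.

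The markers of airway club cells also lay higher at 5000 ppm, though none of the 10 passed. Their summed log2 level was 10.44 to 10.65 in the controls and 10.84 to 11.0 at 5000 ppm. The median fold was 0.42, and 9 of 10 were above 0, against 60.65% of all features. Single arrays spread widely: 20 ppm spanned 10.08 to 10.78. The highest sum of all was 11.35 in 2500 ppm mouse 3, beside 10.55 and 10.48 in the other 2500 ppm mice. Ciliated cell markers summed to 6.61 to 7.19 in the controls and 7.06 to 7.60 at 5000 ppm, which overlapped. A sum wholly above the controls at 5000 ppm was not particular to club cells. The summed levels of the alveolar type 2 cell markers and of the erythroid markers also lay above all controls there. Those of the remaining marker lists overlapped with the controls. Whether the share of club, ciliated or other cells moved the members was not tested.

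Among genes outside the group, Pgd was most like Nqo1, over 15 arrays with r = 0.918, then Entpd5 (0.896) and Ikbkg (0.895), out of the 17032 other features whose symbol was not a Gm, Rik or LOC model name. Nqo1 encodes a quinone reductase that spends NADPH or NADH and is a standard Nrf2 target. Its level was -1.72, -1.66 and -1.78 in the controls, -0.16, -0.57 and -0.42 at 2500 ppm, and 0.28, 0.49 and 0.71 at 5000 ppm. After the diet means were subtracted, r with Pgd was 0.337 for Nqo1, 0.176 for Entpd5 and 0.116 for Ikbkg, so the likeness lay between diets more than between mice of a diet. For other members r stayed high on deviations from the diet means: Taldo1 with Mrpl57 (0.969, and 0.950 on deviations), Pgls with Med9 (0.977, and 0.969), Idh2 with Mzt2 (0.960, and 0.957) and G6pdx with Rabep2 (0.931, and 0.902). In each of these pairs both genes were lowest on control mouse 1 and 20 ppm mouse 1. Mrpl57, for example, read 4.381 and 4.089 there and 4.567 or more on the other arrays. How far these r values rest on those arrays was not tested. Tkt was most like Dnaaf3 (0.903) and Idh1 most like Cited1 (0.862). Among the 8 genes themselves, Taldo1 and Pgls were most alike (r = 0.899), Tkt and Me1 next (0.887), and Idh1 and Idh2 least (-0.0224). Of the 17032 other features, Pgls was at place 106 for Taldo1 and Taldo1 at place 189 for Pgls. Tkt and Me1 were at place 7 for each other. On deviations from the diet means, r between members ran from -0.721 (Pgd and Idh2) to 0.918 (Taldo1 and Idh2). For Pgd and Taldo1 it was -0.64. These correlations describe 15 arrays that share 2 slides and 1 scale per array.

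**Figure D5:**
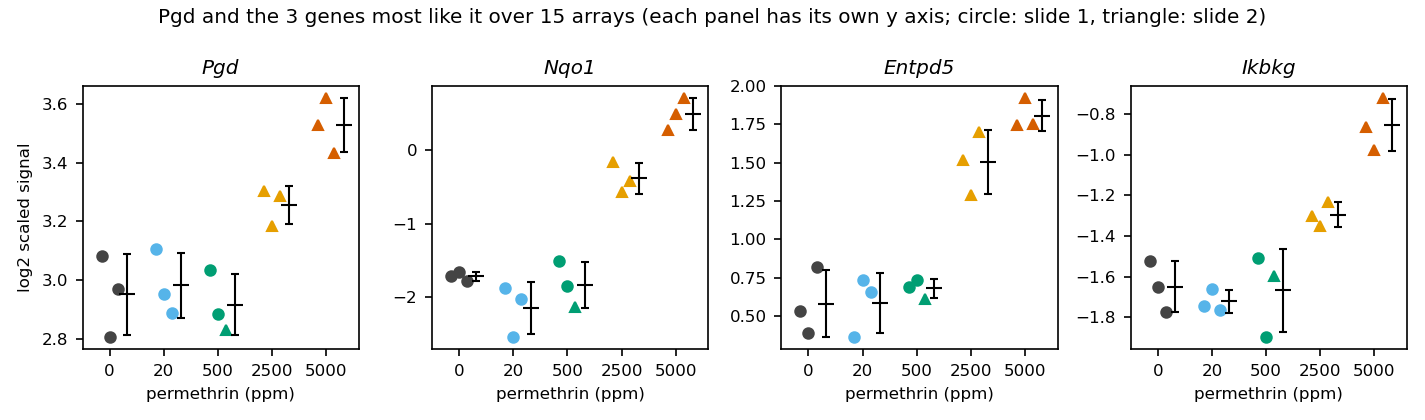
The log2 scaled signal of Pgd and of Nqo1, Entpd5 and Ikbkg is plotted for each mouse by diet, with circles for slide 1, triangles for slide 2, and bars for the mean and SD of 3 mice. Each panel has its own y axis. In all 4 panels the 2500 ppm mice lie above those of the 3 lower groups and the 5000 ppm mice lie higher still, and the Pgd range is the narrowest.

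The enzymes that spend NADPH changed in part. Of 15 such genes, 3 rose at 5000 ppm by limma (0.0407% of all features): Nqo1 by 2.22 (adjusted p = 0.00096), Cbr3, a carbonyl reductase, by 1.55 (adjusted p = 0.0122), and Txnrd1, the cytosolic thioredoxin reductase, by 1.29 (adjusted p = 0.0106), on the log2 scale. The other 12 did not pass, among them Gsr, glutathione reductase, at 0.60, and the median of the 15 was 0.30. The list of 16 Nrf2 targets, which shares Nqo1, Txnrd1 and Gsr with those 15, had 6 that rose at 5000 ppm: Nqo1, Txnrd1, Srxn1 by 1.61, Osgin1 by 1.10, Gsta2 by 2.56 and Gpx2 by 2.0. Over the trend 8 rose, these 6 with Gclc and Gstm1. Both lists were drawn up with results of these arrays known, so their direction is no independent evidence. The median of the 16 Nrf2 targets at 5000 ppm was 1.05, while the median of the 8 NADPH suppliers was 0.38.

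The remaining suppliers showed no call. Of 23 other genes of the pentose phosphate pathway and of NADPH and NADP supply, including H6pd, Rpia, Me3, Nnt, the folate dehydrogenases and the NAD kinases, none passed at any comparison. Their median at 5000 ppm was 0.18, and 19 of 23 were above 0. The largest differences were those of Mthfd1, a cytosolic folate enzyme, 0.61 ± 0.30 (SE), and Nadk2, the mitochondrial NAD kinase, 0.39 ± 0.20. Of 11 genes of fatty acid synthesis, a pathway that spends NADPH, none passed, and the median at 5000 ppm was 0.20. Srebf1 at 0.40 and Mlxipl at 0.39 were the highest of them, and both encode transcription factors of the pathway rather than enzymes.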

How the data were processed

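Scans were read by version 10.7.3.1 of Agilent's extraction software, per the file headers. Its background-subtracted processed signal, a linear intensity in the deposited scanner files, was the starting value. Deposited log2 values, in a separate table, differed from log2 of that intensity by 1 constant per array. The files of slide 1 name the build mm9 in their headers, and slide 2's build is not given in the sources used here.

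Control spots and spots flagged as non-uniform or population outliers were left out, spots of a probe were averaged, and log2 signals were set to the array's 75th percentile over 56605 probes. Probes were kept (43154) when every array of some diet had them well above background in 50% or more of their spots. Symbols came from RefSeq accessions (GRCm38.p6), with the brightest probe per symbol.

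All 15 arrays entered 1 fit with a term for each diet (limma 3.58.1, R 4.3.3), 10 residual degrees of freedom, two-sided tests and Benjamini-Hochberg adjustment over 34401 features at 0.05. The fit was tested on simulated data. Those data held independent noise for each feature, with no slide effect and no outlying array, so the test could not cover either. Replicate numbers were checked as pairs by correlating deviations from the diet means. Same-numbered arrays reached 0.166 to 0.612 between control and 20 ppm and 0.289 to 0.475 between 500 and 2500 ppm. Arrays of unlike number reached 0.375 between control and 20 ppm, where the ranges overlapped. They reached 0.25 between 500 and 2500 ppm, below the lowest same-numbered value. Between the other diets same-numbered arrays went down to -0.249. Pairs were thus not established, and the main fit held no term for the number. The labels do not say what a number marks. For 20 ppm against control, the fit with the number as a block called 0 features, as without it.

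The members, gene lists and alternatives were chosen with earlier results of these data known. The genes named were all members with their probes, list genes past the threshold or otherwise the 2 with the largest change at 5000 ppm, and the 3 genes most like each member, of which some are given. Genes such as Gsr, Adipoq, H6pd, Rpia, Me3 and Nnt are named as examples or defining markers outside that rule. Alternatives covered background correction, scaling, filters, probes, blocks, weights and left-out arrays, and leaving out the 3 arrays highest in adipocyte markers, scaling over kept probes and keeping outlier spots were added after the data were seen.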

Additional observations from a re-analysis of the deposited data

How the results depend on the processing

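No member passed at 5000 ppm or on the trend in the fit as reported, and Pgd was the 1 member that passed in any alternative: with array weights at 5000 ppm (0.63, adjusted p = 0.0193), for the dose trend (0.16, adjusted p = 0.00495) and in the test of any difference, giving a count of 1 each, where 93, 543 and 532 features were called, and on the trend with a count of 1 under empirical Bayes with trend and robust (0.14, adjusted p = 0.0406) and without control mouse 1, 20 ppm mouse 1, 500 ppm mouse 3 and 2500 ppm mouse 3 (0.16, adjusted p = 0.0462). The cause was not tested. Pgd stayed above the control at 5000 ppm in all 20 other settings, between 0.44 (quantile normalization) and 0.71 (slide as a fixed block). With the replicate block no member was called, Pgd was 0.58 at 5000 ppm (adjusted p = 0.334), and its trend was 0.14 (adjusted p = 0.115), and the count of all features at 5000 ppm was 13. It changed no member's call and took the count for any difference among the diets from 14 to 7.

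The count of all features at 5000 ppm (14) was 9 with the array median as scale, 4952 with a fixed slide block, 5 with a random one, 93 with array weights, 9 with only the groups compared, 33 without 500 and 2500 ppm mouse 3, 6 without control and 20 ppm mouse 1, and 4 without the 3 arrays highest in adipocyte markers. Leaving out 1 array gave 5 (control mouse 1) to 20 (2500 ppm mouse 3). The trend count (49) was 30 with no filter, 5494 and 5 with the fixed and random slide block, 75 with trend and robust, 543 with array weights, 127, 14 and 122 without the same 2, 2 and 4 arrays, 77 with the percentile over kept probes and 7 without the adipocyte-high arrays. Leaving out 1 array gave 14 (control mouse 1) to 76 (500 ppm mouse 3). The count for any difference (14) lay between 0 (without the adipocyte-high arrays) and 2851 (fixed slide block), and single omissions took it to 5 for control mouse 1 at the lowest and 23 for 500 ppm mouse 3 at the highest. The counts of 0 went up to at most 15 at 20 ppm and 944 for 5000 against 2500 ppm, both without the 4 arrays, and to 4 at 500 ppm (array median). At 2500 ppm the count was 46 without 2500 ppm mouse 3, 126 and 274 without the 2 mouse 3 arrays and the 4 arrays, 489 with array weights and 5055 with the fixed slide block.

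Some folds changed sign, none of them called. With the array median as scale, which lowered every 500 ppm fold by 0.23, the 500 ppm folds were -0.175 for Taldo1, -0.030 for Tkt, -0.083 for Idh2 and -0.156 for Pgls. With the mean of a gene's probes they were, at 20 ppm, 0.21 for Taldo1 and 0.26 for Idh2, at 500 ppm -0.36, 0.040 and -0.32 for Taldo1, Idh1 and Idh2, at 2500 ppm -0.38, 0.078 and -0.29, at 5000 ppm -0.26 for Idh2, and on the trend -0.048 for Taldo1 and -0.11 for Idh2. Quantile normalization gave 0.052 and 0.024 for Taldo1 and Idh2 at 20 ppm, 0.0085 for Idh1 at 2500 ppm, and -0.033 and -0.088 for G6pdx and Idh2 between 5000 and 2500 ppm. Idh1 at 2500 ppm was 0.032 with normexp (offset 50), 0.010 with the fixed and 0.0017 with the random slide block. Pgd at 500 ppm was 0.0079 with the fixed block, within slide 1 and without the 2 mouse 3 arrays, 0.076 with array weights, 0.030 without the 2 mouse 1 arrays and 0.073 without all 4. Array weights gave 0.029, -0.0017 and -0.0026 for Taldo1 at 20, 500 and 2500 ppm and -0.024 for Me1 at 2500 ppm. Without control and 20 ppm mouse 1, Taldo1 was 0.036, -0.027 and -0.011 at these doses and Pgls -0.034 and -0.023 at 500 and 2500 ppm. Without all 4, Taldo1 was 0.036, -0.017 and -0.020, Me1 -0.073 and Pgls -0.013 at 2500 ppm. Without the adipocyte-high arrays G6pdx was -0.047 between 5000 and 2500 ppm.

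Leaving out 1 array, 20 ppm folds ranged from -0.091 to 0.27 for G6pdx, -0.043 to 0.095 for Pgd, -0.11 to 0.12 for Taldo1, -0.12 to 0.066 for Tkt, -0.14 to 0.099 for Idh2 and -0.086 to 0.14 for Pgls. At 500 ppm they ranged from -0.11 to 0.030 for Pgd, -0.027 to 0.11 for Taldo1, -0.11 to 0.030 for Idh1 and -0.034 to 0.14 for Pgls, and at 2500 ppm from -0.011 to 0.12 for Taldo1, -0.023 to 0.15 for Pgls and -0.11 to 0.083 for Idh1. Idh2 ranged from -0.012 to 0.090 between 5000 and 2500 ppm. Dim signal was no limit for the members, whose lowest processed signal on any array was 58.51.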

Other observations

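The neighbouring pathways of carbon metabolism had positive medians at 5000 ppm and no call, beside a median of 0.0725 over all features. Of 14 glycolysis genes 13 were above 0, with a median log2 fold of 0.25, and the largest difference was that of Hk2, a hexokinase, at 0.64 ± 0.20 (SE, limma adjusted p = 0.739), followed by Gapdh at 0.44. Of 14 citric acid cycle genes 12 were above 0, with a median of 0.25, and the largest differences were Idh3b, a subunit of the NAD-dependent isocitrate dehydrogenase, at -0.44 ± 0.79 (SE) and Ogdh at 0.39 ± 0.19 (SE). The 8 NADPH suppliers had a median of 0.38.

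Markers of other cells gave no call either. The median log2 fold at 5000 ppm was -0.11 over 10 alveolar type 2 cell markers, -0.26 over 10 alveolar macrophage markers and 0.32 over 8 ciliated cell markers. It was 0.29 over 8 neutrophil markers, 0.12 over 6 of 8 erythroid markers, and 0.71 over 10 cardiac muscle markers. For alveolar type 2 cells the 2 measures differed in direction, since their summed level at 5000 ppm lay above all controls. The cardiac median did not follow the dose: it was 1.089 at 20 ppm, 1.165 at 500 ppm and 0.065 at 2500 ppm. Summed cardiac levels overlapped, at 4.55 to 6.64 in the controls and 5.67 to 7.6 at 5000 ppm.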
